A study of Mus musculus with 6 samples.

Results

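The cells described here are 322 recent thymic emigrant-like (RTE-like) invariant natural killer T (iNKT) cells of mouse spleen and liver. They were chosen by measured values: a cell with 300 to 4000 genes and at most 15% mitochondrial transcripts entered when it held a transcript of at least 3 of the 7 markers Ccr7, Klf2, Igfbp4, Nrp1, S1pr1, Pdlim1 and Slamf6 and no transcript of Gzma, Klrb1c, Cd8a, Cd8b1 or Top2a. They make up 322 of the 11046 filtered spleen and liver cells, and of 16532 filtered cells in the series. The other 10724 spleen and liver cells, called remaining cells below, served for comparison within each library.

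The study used droplet single-cell RNA-seq on iNKT cells from lymph node, spleen and liver, with 2 libraries for each organ. Liver and spleen cells came from wild-type C57BL/6 mice aged 5 weeks, and the study's methods describe the same enrichment and sort for both organs. Cells positive for CD8 or B220 were removed with magnetic beads, and cells that bound an antibody to TCR-b and a CD1d tetramer were then sorted. The study's methods call the libraries of an organ biological repeats, and how many animals stand behind each is not given in the labels. The p-values below therefore refer to the spread between these libraries, which the edgeR fits largely estimated over many genes together. The labels name the molecule as nuclear RNA, and this was not settled here.

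iNKT cells are T cells with a nearly fixed T cell receptor that recognises lipids presented by CD1d. They are selected in the thymus, and some leave it as immature cells that mature further in the tissue they reach. Emigration of T cells depends on the transcription factor Klf2, which drives S1pr1, the receptor that lets cells follow sphingosine 1-phosphate into blood and lymph. Ccr7 guides T cells towards lymph node chemokines, whereas CD69 binds S1pr1 and holds cells in place. Mature iNKT cells are grouped by their leading genes into iNKT1 (Tbx21, interferon-gamma and natural killer receptors), iNKT2 (high Zbtb16, Il4) and iNKT17 (Il17a) cells.

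The upstream sequences of marker genes are shown because Klf2 belongs to a family of zinc finger factors that bind CACCC boxes. RefSeq (GRCm38.p6) promoter windows matched 5 of the 7 markers by symbol. The letters CACCC were searched on both strands in the 250 bases before the start, and capitals mark them as read on the strand of the gene (CACCC or its reverse complement GGGTG). The windows are Klf2 at chr8:72318812-72319061 (plus strand, 1 match, whose first letter lies 19 bases before the start), Igfbp4 at chr11:99040994-99041243 (plus strand, 1 match, 48 bases before the start) and Nrp1 at chr8:128358823-128359072 (plus strand, 2 matches, the nearer 40 bases before the start).
Klf2: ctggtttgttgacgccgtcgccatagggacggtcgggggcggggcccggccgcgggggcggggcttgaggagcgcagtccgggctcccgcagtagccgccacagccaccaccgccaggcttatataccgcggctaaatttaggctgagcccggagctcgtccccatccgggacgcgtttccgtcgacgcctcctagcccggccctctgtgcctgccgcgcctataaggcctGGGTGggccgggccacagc
Igfbp4: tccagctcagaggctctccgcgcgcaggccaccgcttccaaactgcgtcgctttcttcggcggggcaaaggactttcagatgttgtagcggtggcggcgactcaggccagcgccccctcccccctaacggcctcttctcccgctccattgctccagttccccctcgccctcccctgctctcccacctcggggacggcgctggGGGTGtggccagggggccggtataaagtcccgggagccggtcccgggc
Nrp1: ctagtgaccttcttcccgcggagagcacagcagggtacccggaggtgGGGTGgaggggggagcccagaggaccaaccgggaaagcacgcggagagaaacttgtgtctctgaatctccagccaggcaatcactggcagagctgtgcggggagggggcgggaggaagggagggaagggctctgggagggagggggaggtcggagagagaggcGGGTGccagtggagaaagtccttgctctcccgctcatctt
The windows of Pdlim1 (chr19:40271617-40271866, minus strand) and Slamf6 (chr1:171917212-171917461, plus strand) hold no match, which says only that these letters are not in those windows. Of all 32851 promoter windows of this length, 52.0% hold the letters, so the matches are a description and not binding sites.

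The first comparison asked how large a share of the cells these are in each organ. RTE-like cells were a larger share of spleen than of liver cells in each library. In liver, 46 of 2801 cells (1.64%, exact 95% interval 1.20 to 2.18) and 41 of 2861 cells (1.43%, 1.03 to 1.94) met the rule. In spleen, 134 of 2729 cells (4.91%, 4.13 to 5.79) and 101 of 2655 cells (3.80%, 3.11 to 4.60) did so. The intervals of the spleen libraries did not overlap those of the liver libraries. The mean was 4.36% ± 0.782 in spleen and 1.54% ± 0.148 in liver (SD, n = 2 each, two-sided exact permutation p = 0.33, the smallest p that 2 against 2 libraries can give). Intervals cover counting error only.

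The share depends on depth, since a marker is more often detected in a deeply read cell. The RTE-like cells had a median of 5591 and 3984 UMIs (unique molecular identifiers, that is, counted transcripts) in the liver libraries and 3096 and 2703 in the spleen libraries. The remaining cells had 3576 and 2873 in liver and 1696 and 1529.5 in spleen, so members were the deeper cells in each library and liver the deeper organ. When each cell was thinned to 2000 UMIs and shallower cells were left out, the share was 0.609% and 0.811% in liver and 7.59% and 6.77% in spleen. Thinning left out 337 and 519 liver cells but 1820 and 1916 spleen cells, so the spleen share at 2000 UMIs describes the deepest spleen cells. At 1000 UMIs, where at most 169 cells of a spleen or liver library were left out, the share was 0.286% and 0.175% in liver and 0.967% and 0.885% in spleen. Spleen stayed above liver at each depth, while the ratio of the means ranged from 2.83 as deposited to 10.1 at 2000 UMIs. The mitochondrial share of transcripts was slightly higher in members than in remaining cells of each library (2.96% against 2.73%, 3.84% against 2.78%, 4.73% against 4.04% and 5.52% against 4.65% in liver 1, liver 2, spleen 1 and spleen 2). Values for deep cells, those of at least 2000 UMIs, are given beside the differences below, but they do not make depth equal. Among deep cells, members had medians of 5591, 4003, 3180.5 and 2908 UMIs (liver 1, liver 2, spleen 1, spleen 2). The remaining deep cells had 3746.5, 3057, 2527 and 2678. Whether depth or RNA quality sets part of these differences was not tested.

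**Figure D1:**
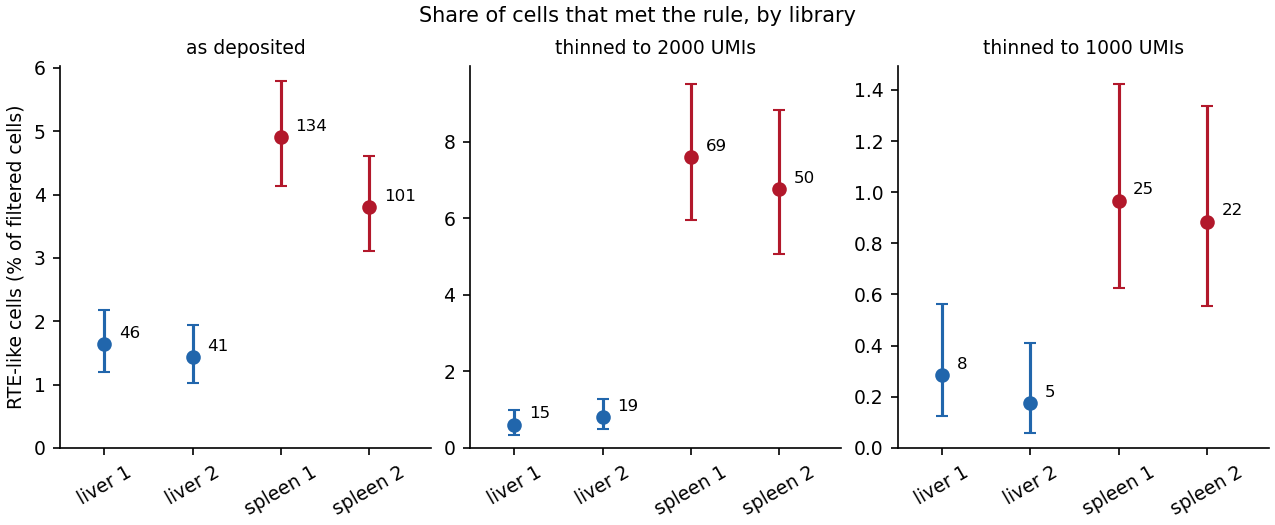
Share of filtered cells that met the RTE-like rule in each liver and spleen library (percent, points with exact 95% binomial intervals, member counts as labels), as deposited, thinned to 2000 UMIs and thinned to 1000 UMIs; the vertical scales differ. Both spleen libraries lie above both liver libraries in each panel (3.80% and 4.91% against 1.43% and 1.64% as deposited).

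The exclusion genes shaped the members differently in each organ. Of 498 spleen and liver cells with at least 3 markers, 176 (35.3%) were removed, 99 of them with Top2a, a gene of dividing cells, and 96 with Klrb1c, which encodes NK1.1 of mature iNKT1 cells. They removed 57.4% and 48.8% of such cells in the liver libraries but 21.6% and 27.3% in the spleen libraries. Without them the mean share was 5.75% in spleen and 3.33% in liver.

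The markers themselves chose the members, so their levels are a description. Levels are given in CPM, UMIs of a gene scaled to the same total in each sum over cells of a class in a library, and in such sums more cells with a transcript and more transcripts per cell cannot be told apart. Klf2 was at 734 and 805 CPM in RTE-like cells of the liver libraries and 1095 and 966 in spleen, against 155, 128, 284 and 268 in the remaining cells in the same order. Ccr7 was at 130 and 184 CPM in liver and 206 and 216 in spleen, against 7.5 and 6.6 in liver and 17 and 18.5 in spleen. S1pr1 was at 148, 219, 237 and 226 CPM against 23.4, 23.5, 37.2 and 43.8. The marker with the lowest mean over the members of the 4 libraries was Igfbp4, an insulin-like growth factor binding protein, at 105 and 52.5 CPM in liver and 145 and 137 in spleen. Slamf6, a receptor of the family that iNKT cells need for selection, lay between 350 and 446 CPM, and the cytoskeletal adaptor Pdlim1 between 241 and 387. Nrp1 (neuropilin 1), which marks recent thymic iNKT emigrants in mouse, lay between 118 and 179 CPM. Klf2 was the marker found in most members: 78.3% to 90.2% of the members of a library had a Klf2 transcript, and 26.8% to 36.6% had a Ccr7 transcript.

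As a description, each marker was also read in cells that met the rule on at least 3 of the other 6 markers, a setting added after the data had been seen. The 7 markers were chosen together with results of these data known, so that they go together in the same cells was fixed by the choice, and these values support nothing. Each marker was higher in the selected cells than in the other cells in all 4 libraries. The ratio was lowest for Slamf6 in spleen 2 (1.38) and highest for Ccr7 in liver 2 (23.8). Klf2 was 4.92, 3.71, 2.90 and 2.44 times higher in liver 1, liver 2, spleen 1 and spleen 2. The selected cells are also the deeper ones, and CPM corrects for that only on average.

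**Figure D2:**
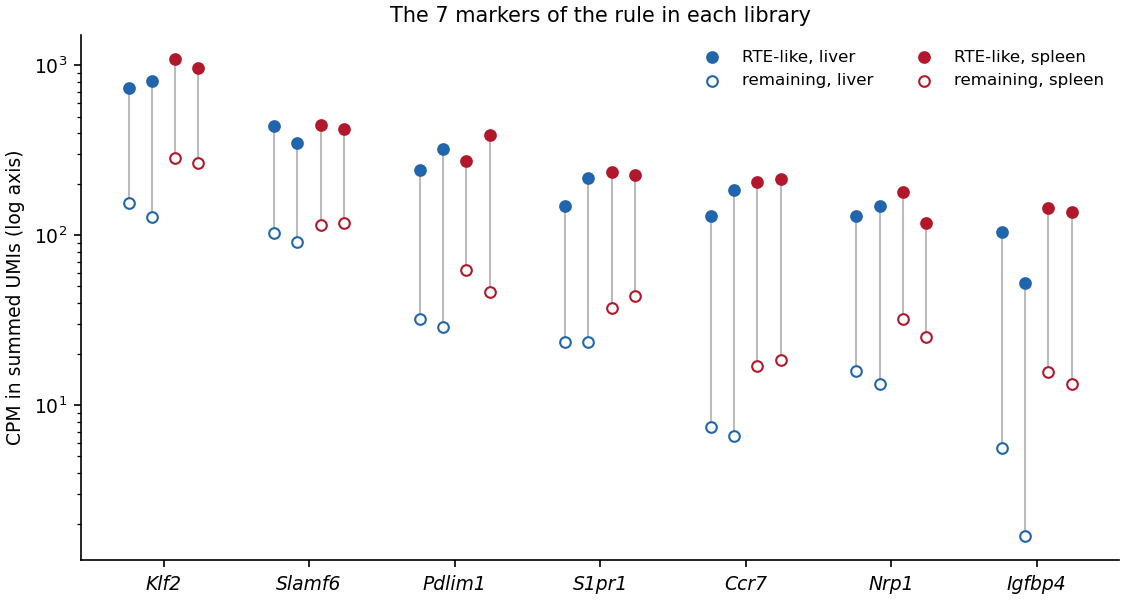
Level of the 7 markers of the rule (CPM, log axis) in RTE-like cells (filled) and remaining cells (open) of each liver and spleen library. The filled points lie above the open points for each marker because the markers chose the cells; Klf2 spans 734 to 1095 CPM in members and 128 to 284 in remaining cells.

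Members were not uniform. Exactly 3 markers were found in 221 cells, 4 in 77, 5 in 19, 6 in 5 and all 7 in none, and 575 further cells without an exclusion gene had exactly 2. The 221 cells with 3 markers spread over 27 combinations, the most common being Klf2 with Pdlim1 and Slamf6 (37 cells, 28 of them in spleen). Just inside and just outside the threshold, Nkg7 (a granule protein of killer cells) was at 1158, 1082, 673 and 646 CPM in cells with 3 markers and at 1507, 1739, 1200 and 976 CPM in cells with 2 (liver 1, liver 2, spleen 1, spleen 2). Tcf7, a transcription factor of naive and memory T cells, was at 274, 165, 228 and 236 CPM inside and 135, 124, 199 and 213 outside. Splitting members by Ccr7, the 112 cells with a Ccr7 transcript had more Lef1 (211, 300, 428 and 457 CPM) than those without (133, 232, 316 and 349) in each library, and less Nkg7 (546, 764, 481 and 485 against 1150, 991, 697 and 668).

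The label was read against genes the rule did not use. No transcript of Rag1, Rag2 or Dntt, genes of developing thymocytes, was counted in the members of any of the 4 libraries, and Cd24a, a marker of immature thymocytes, had 2 transcripts in all. T cell identity was plain, with Cd3d at 1808, 1916, 2400 and 2201 CPM in members and 1938 to 2371 CPM in remaining cells (log2 difference −0.13 ± 0.07, edgeR adjusted p = 0.325). The name RTE-like therefore stands for the rule alone, and the libraries used here hold no thymus sample that would show when a cell left it.

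The second comparison asked which other genes went with the rule, with transcripts summed over members and over remaining cells of each library and the library kept as a block. Of 9466 genes tested, 623 (6.58%) passed an adjusted p of 0.05, 252 higher in RTE-like cells (2.66%) and 371 lower (3.92%). With another scaling (RLE) the same number passed, with 311 higher and 312 lower. Of the 623, 554 differed in the same direction in all 4 libraries. Genes that vary with the 12 rule genes from cell to cell differ because of the choice of cells, so these are the genes that travel with the gate. Within cells of at least 2000 UMIs, 329 of 8054 genes passed, and 308 of the 623 were among them. Against remaining cells that also lacked the 5 exclusion genes, 617 of 8879 passed, 548 of them shared with the 623.

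Several homing and egress genes outside the rule were higher. Of 14 tested, 5 rose and 0 fell, with a median log2 difference of 0.49 against −0.05 over all genes. Itgb7, the beta chain of the gut homing integrin, was at 543, 481, 605 and 495 CPM in members and 330.5, 287, 382 and 321 in remaining cells (liver 1, liver 2, spleen 1, spleen 2). Members were above remaining cells in each library, by 0.62 ± 0.09 (log2 ± SE, adjusted p = 8.7e-09). Rasgrp2, which activates the small G protein Rap1 and through it integrins, rose by 0.97 ± 0.15 (adjusted p = 5.78e-09), from 66.7 to 117 CPM in remaining cells to 157 to 216 in members. S1pr4, another sphingosine 1-phosphate receptor, and the integrin chain Itga4 rose by 0.50 ± 0.14 and 0.90 ± 0.24. In deep cells 3 of the 14 still passed, Itga4 not among them (adjusted p = 0.0509).

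Among 11 tested factors of immature and naive T cells, 4 rose and 0 fell, with a median of 0.32. Tcf7 was at 333, 149, 308 and 230.4 CPM in members and 73.1, 52.5, 106 and 101 in remaining cells. It rose in each library, by 1.54 ± 0.14 (edgeR adjusted p = 1.28e-26), and with each cell thinned to 2000 UMIs it was detected in 22.5% to 37.0% of members and 6.08% to 17.4% of remaining cells. Id3, an inhibitor of E proteins that is high in early iNKT cells, was at 98.7, 43.7, 122 and 211 CPM against 15.4, 17.8, 48.2 and 50.1, a rise of 1.78 ± 0.21. Lef1, the partner of Tcf7 in naive T cells, rose by 0.71 ± 0.12, and the cytoskeletal gene Actn1 by 2.53 ± 0.43 from 31 transcripts. All 4 also passed in deep cells, against remaining cells without exclusion genes and with DESeq2. Satb1, Bach2 and Sox4, other factors of this list, did not pass (log2 differences 0.09, −0.15 and 0.08).

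iNKT1 genes were lower in RTE-like cells. Of 20 tested, 18 fell and 0 rose, with a median of −1.66. Because the rule left out cells with Klrb1c or Gzma, both iNKT1 genes, the rule itself selected against them. Against remaining cells that also lacked the exclusion genes, 16 of 19 fell and their median was −1.46. Nkg7 was at 938, 918, 615 and 603 CPM in members and 2351, 2626, 2126 and 2048 in remaining cells, a fall of 3.19-fold (log2 −1.67 ± 0.08, edgeR adjusted p = 3.93e-92). Klrk1 (NKG2D) and the chemokine Xcl1 fell by 2.20 ± 0.14 and 2.50 ± 0.16 on the log2 scale. The natural killer receptor Klrd1 was at 142, 209.9, 77.8 and 123 CPM against 420.4, 479, 399 and 409.7. Tbx21, the lead factor of iNKT1 cells, fell by 0.78 ± 0.20 (edgeR adjusted p = 0.00309). In deep cells its log2 difference was −0.53 and did not pass (edgeR adjusted p = 0.222). At 2000 UMIs, 43.3% to 60.0% of members had an Nkg7 transcript against 63.3% to 91.4% of remaining cells.

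Of 8 genes of post-thymic maturation 5 fell and 1 rose, with a median of −0.32. In deep cells 3 fell and 1 rose, with a median of −0.16, and 3 fell with DESeq2. H2-Q7, a non-classical MHC class I gene that rises as T cells mature, was at 673, 525, 203 and 172 CPM against 1068, 943, 486 and 394, a fall of 1.02 ± 0.10 (edgeR adjusted p = 4.71e-22). Its near-identical neighbour H2-Q6 fell by 1.77 ± 0.20, and reads of both genes may be shared. Ly6c2 fell by 0.83 ± 0.09, with the like uncertainty towards Ly6c1, which did not pass. The small G protein family Gimap, linked to survival of peripheral T cells, fell as a whole, 8 of 8 lower with a median of −0.64. Gimap7 went furthest, from 688, 771, 488 and 395 CPM in remaining cells to 247, 324, 199 and 142 in members (−1.44 ± 0.11), and 6 of the 8 also fell in deep cells.

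Of 5 tested chemokine receptors of tissue lymphocytes, 3 fell, among them Cxcr6, with 685, 1067, 980.4 and 789 CPM in members and 1310, 1715, 2071 and 2138 in remaining cells (−1.12 ± 0.08, edgeR adjusted p = 1.47e-42), and Cxcr3 (−0.84 ± 0.11). Ccr2 (−0.18) and Ccr10 (2.27) did not pass, and Ccr10 was higher in members of all 4 libraries but at −6.50 after thinning to 1000 UMIs (adjusted p = 0.483). Of 15 tested genes that the study tied to residency, 4 fell (Cd69, Jun, Junb and Dusp1) and 2 rose (Icos and Qpct), with a median of −0.19. In deep cells 1 rose and 1 fell, with a median of −0.07, and likewise 1 and 1 were called with DESeq2. These are genes of a signature defined in CD8 T cells that the study named in these samples, so the list is not fully independent of them. Cd69 was at 74.1, 96.2, 23.7 and 4.9 CPM in members and 99.6, 117, 85.9 and 81.1 in remaining cells, a fall of 1.26 ± 0.24 (adjusted p = 7.38e-06).

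iNKT2 and iNKT17 genes did not share one direction. Of 8 iNKT2 genes 4 rose and 1 fell, with a median of 0.39. Zbtb16, which encodes PLZF and is highest in early and iNKT2 cells, was at 160.4, 184, 142 and 113 CPM in members against 101, 78.4, 69.8 and 70.1, a rise of 0.83 ± 0.17 (edgeR adjusted p = 3.31e-05). The IL-25 receptor gene Il17rb rose by 1.20 ± 0.25 and Ccr4 by 1.61 ± 0.36, while Il4ra fell by 1.90 (adjusted p = 0.000317). In deep cells 4 of the list rose and 1 fell. Of 9 iNKT17 genes 3 rose (Aqp3 and Blk among them) and 2 fell (Tmem176a and Tmem176b), but in deep cells no rise was called, and with DESeq2 no gene of the list was called.

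Of the lists drawn, the highest median belonged to genes for calcium-binding S100 proteins, annexins, galectins and the cytoskeleton, of which 12 of 14 rose and 1 (Anxa1) fell, with a median of 1.00. Lgals1, galectin 1, was at 2043, 3149, 4125 and 3956 CPM in members and 938, 1199, 1440 and 1569 in remaining cells, a rise of 2.43-fold (log2 1.28 ± 0.07, edgeR adjusted p = 7.47e-76). S100a6 was at 1253, 1400, 2265 and 2780 CPM against 646, 704, 746 and 992, and vimentin (Vim) at 315, 359, 206 and 191 against 83.9, 75.5, 79.1 and 55.2 (1.24 ± 0.07 and 1.73 ± 0.14). Members exceeded remaining cells in each library for all 3 genes. In deep cells 7 of the 14 rose and Anxa1 fell, and at 2000 UMIs Vim was detected in 18.3% to 26.1% of members and 5.96% to 10.5% of remaining cells. Lgals3 (galectin 3) rose by 2.17 ± 0.26 (adjusted p = 0.00248), and its log2 difference was 1.79 in deep cells (adjusted p = 0.35) and 2.23 against remaining cells without exclusion genes (adjusted p = 0.113). Of the 10 genes that the study listed for spleen emigrants, 9 rose, and of the 10 it listed for liver emigrants, 3 fell and none rose; both lists were drawn from these samples and are not independent evidence.

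Further lists were also counted. Of 15 genes of the T cell receptor complex and its signalling, Cd247 rose (0.48 ± 0.13) and Fyn fell (−0.55 ± 0.18), and neither passed in deep cells. Of 11 chaperones none passed (2 rose with the RLE scaling), of 9 genes of the response to T cell receptor signals Cd69 alone fell, and of 11 interferon response genes Gbp2 rose (0.75 ± 0.15) and Ifit1 fell (−0.52 ± 0.17), a fall not called in deep cells, with DESeq2 or with RLE scaling. Among 11 genes of survival and cytokine feedback, 4 fell: Bcl2, Bcl2l11, Socs2 and Cish; in deep cells 1 fell and with DESeq2 2 fell. Bcl2, which opposes apoptosis, was at 173, 184, 33.8 and 49.0 CPM in members against 826, 527, 93.9 and 95.7 in remaining cells (−1.86 ± 0.16, edgeR adjusted p = 7.48e-30; 0.0987 in deep cells). Of 12 NF-kB genes 4 fell, among them Nfkbia (−0.49 ± 0.10) and Icam1 (−0.99 ± 0.24), but 1 fell in deep cells and none with DESeq2. Of 13 cell cycle genes 4 fell, with a median of −0.37. Against remaining cells without any of the 5 exclusion genes, Top2a among them, the median was 0.58, 2 of 13 rose and none fell. Stmn1 shows this turn, at −0.50 ± 0.13 in the main comparison and 1.09 in the other.

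**Figure D3:**
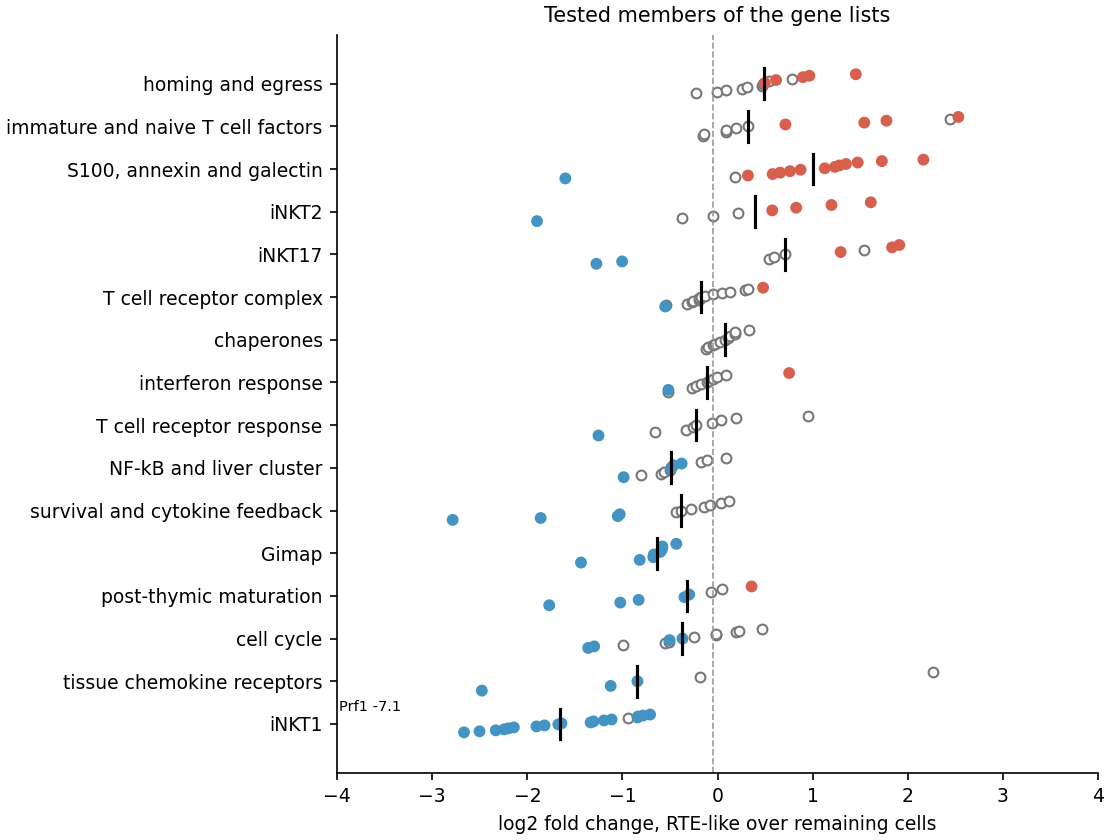
Log2 difference between RTE-like and remaining cells for the tested genes of 16 lists, 1 point a gene, filled where the adjusted p is below 0.05 (red higher, blue lower), with a black bar at the list median and a dashed line at the median of all 9466 genes (−0.05). The S100, annexin and galectin list lies highest (median 1.00) and the iNKT1 list lowest (median −1.66); Prf1, not called at −7.08, is off the axis.

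Called genes were then ranked over all genes, list members included. A mean over 20 CPM in members or in remaining cells was required, so a gene could enter through its higher class alone. Among those that moved alike in each library, the highest differences were those of Tgm3, Itgae, Actn1, St8sia6, Cpm, 2600014E21Rik, Ifngr2 and Pcsk1. Tgm3, a transglutaminase, had 24 transcripts in members and was at 37.0, 70.0, 23.7 and 14.7 CPM against 0.879, 1.19, 3.40 and 3.28 (3.88 ± 0.56, edgeR adjusted p = 4.45e-10). Itgae, which encodes CD103, the integrin chain that binds epithelial E-cadherin, was at 18.5, 35, 37.2 and 29.4 CPM against 3.37, 4.74, 3.69 and 7.75 (2.58 ± 0.49). Ifngr2, the signalling chain of the interferon-gamma receptor, rose by 2.40 ± 0.51 and Pcsk1, a prohormone convertase, by 2.34 ± 0.43. All of these are rare, with 22 to 35 transcripts in the members together, and in deep cells Ifngr2 was at 1.78 (adjusted p = 0.0555) and 2600014E21Rik at 1.68 (0.0658).

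The lowest were Gcnt2, Atp8a2, Nusap1, Cd200r4, Hist1h2ap, Csf2, Socs2 and Klrc2. Members held 1 transcript of Gcnt2, a glycosyltransferase, where remaining cells held 500, a CPM ratio of 0.0505 (exact 95% counting interval 0.00128 to 0.283). They held 2 of Csf2, which encodes GM-CSF (ratio 0.106, 0.0128 to 0.386), and 2 of Cd200r4 (0.101, 0.0123 to 0.369). Neither Csf2 nor Cd200r4 passed with DESeq2 (adjusted p = 0.0538 and 0.0614). Their log2 differences there were −3.24 and −3.17, against −3.19 and −3.23 with edgeR. Socs2, a feedback inhibitor of cytokine signalling, was at 49.4, 52.5, 0 and 9.8 CPM against 275, 240.1, 64.4 and 64.7 (−2.79 ± 0.26, edgeR adjusted p = 1.16e-23). Nusap1 and Hist1h2ap are genes of dividing cells and did not pass against remaining cells without exclusion genes (adjusted p = 0.885 and 0.183); Hist1h2ap and Klrc2 have near-identical relatives whose reads may be shared.

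Many markers of other cells that the sort could hold had few or no transcripts in members, but not in every library. NK cell markers summed to 49.4 and 61.2 CPM in liver members against 13.9 and 18.8 in remaining liver cells. Nearly all of the member sum was 1 gene, Khdc1a, at 43.2 and 61.2 CPM from 7 transcripts in each liver library. Of 7 B cell markers, 6 had no transcript in the members of liver 1, 1 in liver 2, 5 in spleen 1 and 5 in spleen 2, and their summed level was 6.17, 840, 20.3 and 9.80 CPM against 22.7 to 97.7 CPM in remaining cells. In liver 2, 1 member held a transcript of any of 5 B cell markers (Cd79a, Cd79b, Ms4a1 and Pax5 among them), while 4 held one of Cd74, and Cd74 reached 595 CPM and H2-Ab1 184 CPM there. Lyz2, C1qa, C1qb and Adgre1 of the 7 myeloid markers, Foxp3 of the 5 regulatory T cell markers, Alb, Apoa1, Ttr and Serpina1c of the 5 hepatocyte markers, and Ncr1, Eomes and Klra4 of the 5 NK cell markers had no transcript in members, nor did the erythroid gene Alas2. Summed levels in members were 179 to 226 CPM for myeloid markers (nearly all Cst3), 181 to 247 for regulatory T cell markers (mostly Tnfrsf18), 0 to 6.17 for hepatocyte markers and 0 to 61.2 for NK cell markers, against 202 to 246, 364 to 410, 1.70 to 3.37 and 8.22 to 18.8 in remaining cells. Of these markers, Tnfrsf18 fell (−1.05 ± 0.13) and Khdc1a rose (1.78 ± 0.53, 14 of its 16 member transcripts in liver). Libraries shared 6 to 12 cell barcodes in pairs, and no shared barcode was a member in both libraries.

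The same difference was then fitted in each organ. In spleen 445 genes passed (4.7% of 9466) and in liver 259 (2.74%). They shared 156 genes, 35.1% of the spleen calls and 60.2% of the liver calls, and all 156 went in the same direction in both organs. Liver held 87 members against 235 in spleen, and 1 transcript equals 6.17 and 8.75 CPM in the liver sums but 3.38 and 4.90 in the spleen sums, so a gene called in spleen alone is not thereby shown to differ between organs. In deep cells the order of the counts turned, with 116 genes called in spleen and 202 in liver.

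The test of that difference itself, the spleen effect minus the liver effect, passed for 9 genes (0.0951%), with 526 at an unadjusted p below 0.05, 1 by DESeq2 and none when each cell was thinned to 1000 UMIs. Il7r, the receptor for the T cell survival factor IL-7, gave the clearest value. It was at 716 and 682 CPM in members of liver and 602 and 539 in those of spleen, whereas remaining cells were at 267 and 258 in liver and 608 and 511 in spleen. Members of spleen and liver differed by −0.29 ± 0.17 (adjusted p = 0.384), and the remaining liver cells were the lowest. The liver difference was 1.31 ± 0.13, the spleen difference −0.02 ± 0.11 and their difference −1.33 ± 0.16 (edgeR adjusted p = 7.71e-12, DESeq2 adjusted p = 0.000175), and it was −1.30 in deep cells.

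Ctla2a, an inhibitor of cathepsin-like proteases, was at 321 and 472 CPM in liver members and 429 and 559 in spleen members, against 389.9 and 447, and 231 and 264, in remaining cells. It rose in spleen by 0.94 ± 0.12 and was at −0.21 ± 0.15 in liver, a difference of 1.15 ± 0.19 (edgeR adjusted p = 3.7e-06; 0.96 in deep cells, adjusted p = 0.0099). Lmo4, a LIM domain adaptor of transcription complexes, rose in both organs, more in liver (1.85 ± 0.14) than in spleen (1.03 ± 0.09), and so did Lgals3 (2.78 ± 0.17 and 1.78 ± 0.13). For both genes the remaining cells of liver were the lowest, at 178 and 187 CPM for Lmo4 and 62.1 and 82.1 for Lgals3. The Lgals3 difference was −0.54 without liver 1 (adjusted p = 0.854) and −0.79 without spleen 2 (0.428), and that of Lmo4 −0.82 without spleen 1 (0.161). With at least 2 markers as the rule, neither passed (−0.25 for Lgals3 and −0.37 for Lmo4, edgeR adjusted p = 0.856 and 0.422). Neither passed with DESeq2 (−1.08 and −0.88). Both passed in deep cells (−1.73 and −1.26, edgeR adjusted p = 2.29e-06 for each). With at least 4 markers they also passed (−1.81 and −1.35, edgeR adjusted p = 1.71e-06 and 0.000305).

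The values of the other 5 genes also changed with the cells or libraries used. S100a6 rose more in spleen (difference 0.63 ± 0.13) and the chemokine Ccl5 fell more in spleen (−0.77 ± 0.13), but in deep cells these values were −0.01 and 0.10 and neither passed. The difference of lymphotoxin beta (Ltb), −0.70 ± 0.13, was −0.27 in deep cells (adjusted p = 0.86). Ccr10 (−2.52 ± 0.54) came from liver 1, where members were at 123 CPM and those of liver 2 at 17.5, and was 0.32 without it. H2-Ab1 (−4.20 ± 1.02), an MHC class II gene, was at 6.17, 184, 6.76 and 0 CPM in members and did not pass without the members that held any of those 5 B cell markers (−1.37, adjusted p = 0.984).

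**Figure D4:**
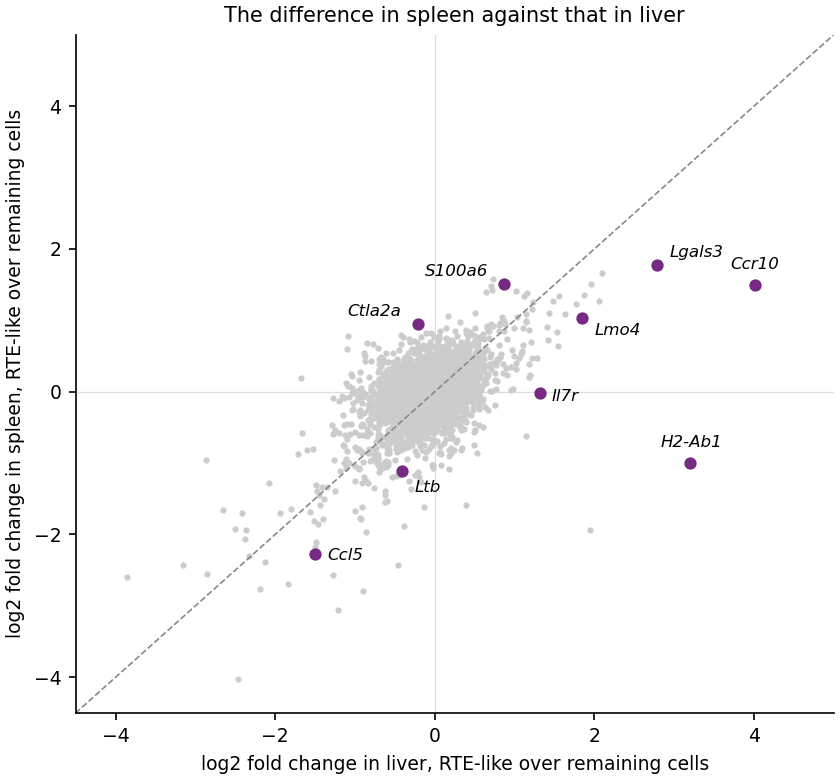
Log2 difference between RTE-like and remaining cells in liver (horizontal) and in spleen (vertical) for 3295 genes with a summed mean of at least 100 CPM, with a dashed line where both are equal; labels mark the 9 genes for which the 2 differences differed (adjusted p below 0.05). Il7r lies at 1.31 in liver and −0.02 in spleen.

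The last comparison set RTE-like cells of spleen against those of liver. Of 3294 genes with enough transcripts, 132 passed (4.01%), 48 higher in spleen (1.46%) and 84 higher in liver (2.55%). For 129 of the 132, the remaining cells differed in the same direction, and 3 of the 132 also passed the test of the spleen effect against the liver effect. By direction of the means alone, most of what follows was thus also seen in the other iNKT cells of the same libraries. Remaining cells were not tested between organs, and the share with the same direction over all 3294 genes is not given. The test of the spleen effect against the liver effect passed for 9 of 9466 genes, so missing it does not show that a difference is shared.

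Genes higher in spleen members included Lef1, S100a6, Lgals1 and Lmo4. Of these, S100a6 alone also passed with DESeq2 (adjusted p = 0.00181). Lef1 was at 358 and 387 CPM in spleen and 160.4 and 254 in liver members (0.89 ± 0.24, edgeR adjusted p = 0.0287), and S100a6 was 1.91-fold higher in spleen (0.93 ± 0.17, adjusted p = 0.000479). Remaining cells had the same order, with a spleen to liver ratio of 1.41 for Lef1 and 1.29 for S100a6. Of the 5 tested factors of naive T cells Lef1 alone passed; Tcf7 did not (0.11 ± 0.26). Homing genes gave no difference that passed, 0 of 12 in either direction. Pdlim4, at 37.2 and 68.6 CPM in spleen members and without a transcript in liver members, had too few transcripts to be tested. Among tested genes with a mean over 20 CPM in either organ, the largest rise was that of Sgk3, a kinase downstream of PI3K. It was at 87.9 and 78.4 CPM against 18.5 and 8.75 (2.49 ± 0.60, edgeR adjusted p = 0.0111). Next was Klf10, a Klf2 relative induced by TGF-beta, at 105 and 93.1 CPM against 18.5 and 26.2 (2.17 ± 0.50, adjusted p = 0.00729). Xlr4c, Drosha, Lrrc8a, 1700097N02Rik, Nfu1 and Agfg1 followed, at 1.61 to 2.04, each from 5 to 12 transcripts in the liver members; Xlr4c has near-identical relatives.

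Among the genes higher in liver members were Il2rb, Bcl2, Ly6c2 and H2-Q7. Il2rb, the shared beta chain of the IL-2 and IL-15 receptors, was at 315 and 385 CPM in liver and 112 and 88.2 in spleen members, 3.38-fold lower in spleen (−1.76 ± 0.27, edgeR adjusted p = 3.65e-05). Bcl2 was at 173 and 184 CPM against 33.8 and 49.0 (−2.12 ± 0.38, adjusted p = 0.000479). In remaining cells Bcl2 and Il2rb were lower in spleen too, with ratios of 0.140 and 0.329. Of 6 tested genes of survival and cytokine feedback, 3 were higher in liver (Bcl2, Socs1 and Pim1), with a list median of −1.07. Of 8 maturation genes, 3 were higher in liver: Ly6c2 at 815 and 849 CPM against 227 and 162 (−2.06 ± 0.20), H2-Q7 at 673 and 525 against 203 and 172 (−1.67 ± 0.21) and H2-Q6 (−1.77 ± 0.50).

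Among 10 tested iNKT1 genes, 5 were higher in liver members (Il2rb, Cxcr3, Ctsw, Nkg7 and Ccl5) and 0 in spleen, and 1 of 10 with DESeq2. Cxcr3, a receptor for interferon-induced chemokines, was at 370.3 and 429 CPM against 223 and 181 (−0.94 ± 0.23, edgeR adjusted p = 0.0111). Of 7 interferon response genes 3 were higher in liver (Gbp2, Isg15 and Ifi47), and 1 with DESeq2, with Gbp2 at 290.0 and 279.9 CPM against 91.3 and 98.0 (−1.59 ± 0.27, adjusted p = 0.000248). Cxcl10, a ligand of Cxcr3, had 14 and 19 transcripts in the liver members and 0 and 1 in the spleen members, a spleen to liver CPM ratio of 0.0168 (exact 95% counting interval 0.000412 to 0.100). Cd69 was at 74.1 and 96.2 CPM in liver and 23.7 and 4.9 in spleen members (−2.34 ± 0.60, adjusted p = 0.0206). Fgl2, Nfkbid, Ccnb2 and Aebp2 were also higher in liver, by 2.14 to 3.01 on the log2 scale; without liver 1, Nfkbid, Ccnb2 and Aebp2 did not pass (adjusted p = 0.0679, 0.706 and 0.498).

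Of 11 chaperones 3 were higher in liver members. Hsp90ab1 was at 2456 and 1881 CPM against 1237 and 1044 (−0.92 ± 0.17, edgeR adjusted p = 0.000479), Hspa8 at 2481 and 2712 against 1535 and 1314 (−0.86 ± 0.16) and the chaperonin subunit Cct2 at 352 and 271 against 152 and 137 (−1.11 ± 0.25). Hsp90ab1 and Hspa8 are also on the list of liver emigrant genes that the study drew from these samples. Their ratios in remaining cells were 0.504, 0.487 and 0.514, and none of the 3 passed the test of the spleen effect against the liver effect. AY036118, a transcript that overlaps ribosomal RNA sequence, was at 234 and 192 CPM in liver and 10.1 and 19.6 in spleen members (−3.88 ± 0.45), and at 226, 165, 19.0 and 20.3 CPM in remaining cells. This transcript and the lower depth of spleen move with organ in all cells, and their part in the organ differences was not tested.

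Several of these organ calls were lost when 1 library was left out. With any 1 of the 4 libraries left out, Il2rb, Bcl2, Gbp2, S100a6, Hspa8, Ly6c2, H2-Q7, Pim1, Cxcl10 and AY036118 still passed. Without liver 1 the difference of Lef1 was 0.55 (edgeR adjusted p = 0.523), of Lgals1 0.37 (0.52), of Lmo4 0.53 (0.367), of Klf10 1.91 (0.257), of Sgk3 3.18 (0.0679), of Cd69 −2.57 (0.264), of Hsp90ab1 −0.71 (0.0602) and of Cct2 −0.89 (0.247). Leaving out another library also ended calls. Sgk3, Cd69, Ccl5, Nkg7, Ctsw, Isg15, H2-Q6, Aebp2 and 1700097N02Rik did not pass with any 1 library left out, though each kept its direction. Ccl5, at −0.57 with all libraries, was between −0.71 and −0.38, and its remaining cells ran the other way (spleen to liver ratio 1.20). Of the other genes named as higher in spleen, Xlr4c passed only without liver 2, Lrrc8a and Agfg1 only without spleen 1, Drosha not without liver 1 or spleen 2, and Nfu1 not without liver 1 (adjusted p = 0.165). Of those higher in liver, Ifi47 passed only without liver 1 and Socs1 not without liver 2 or spleen 2. Fgl2 did not pass without either spleen library and was not tested without a liver library. Lef1, Lmo4 and Klf10 did not pass without spleen 1 (0.97, 0.63 and 2.09) or without spleen 2 (0.84, 0.63 and 2.24), and Cct2 did not without spleen 2. Cxcr3 passed without liver 1 but not without liver 2 or spleen 2 (adjusted p = 0.0964 and 0.139). Leaving out a library left 1 library of that organ, which was taken to vary like the other organ.

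**Figure D5:**
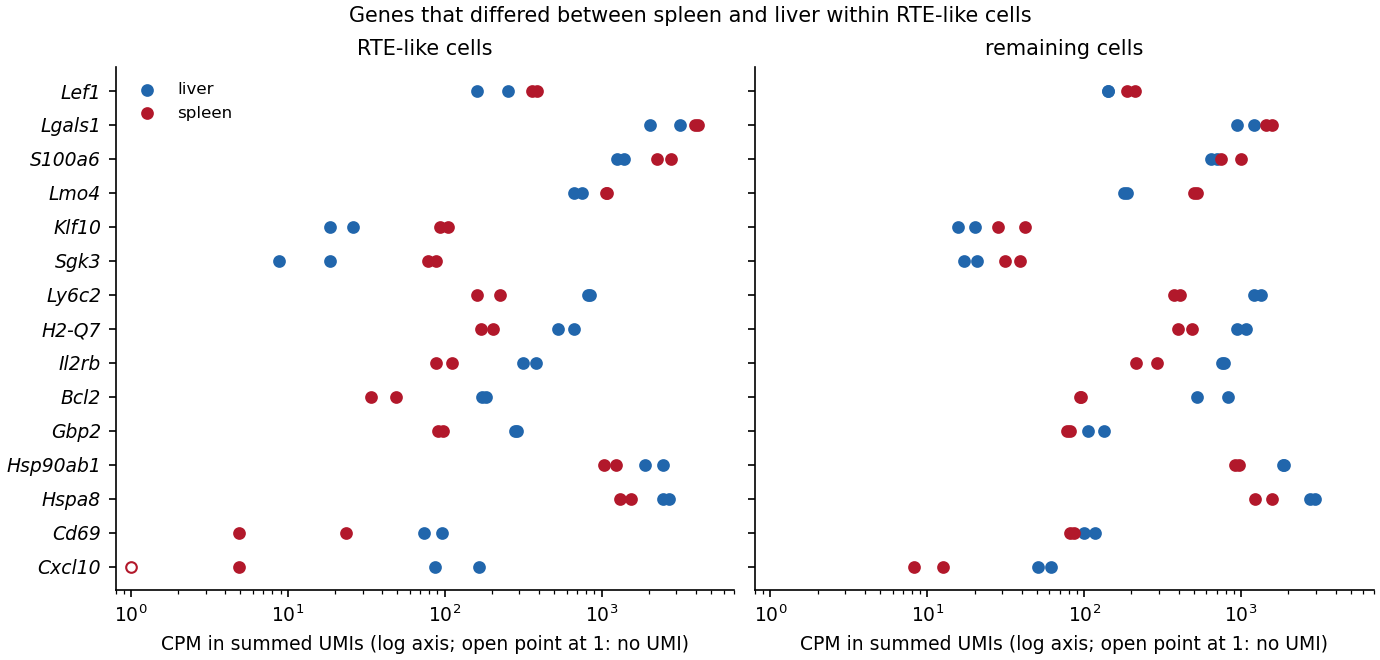
Level (CPM, log axis) of 15 genes in each liver and spleen library, in RTE-like cells and in remaining cells; an open point at 1 marks a sum with no transcript. Lef1, S100a6 and Klf10 are higher in spleen and Bcl2, Ly6c2, Il2rb and Hsp90ab1 higher in liver, in members as in remaining cells; Cxcl10 had no transcript in the members of spleen 1.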

How the data were processed

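The authors deposited unnormalized UMI counts per gene and cell from Cell Ranger 3.1.0 on mm10 (10x 3′ libraries; the submitters' processing notes also name Seurat). The 2 spleen and 2 liver libraries held 5024085 to 11086603 UMIs; 35 barcodes failed the cell filter. Members and gene lists were chosen with earlier results of these data known. UMIs were summed per library over RTE-like and over remaining cells, leaving out 188 ribosomal and haemoglobin genes of 27998 in the files, and tested with edgeR 4.0.16 (R 4.3.3; filterByExpr with a minimum count of 10, TMM, robust quasi-likelihood fit, Benjamini-Hochberg adjustment over all genes tested, called below 0.05), with the library as a block except between organs. The 12 rule genes stayed in library sizes and were not tested. In fits with remaining cells the median prior degrees of freedom were infinite, with 3 or 2 residual. For most genes the spread was thus that fitted over all genes, and not the gene's own spread between libraries. Between organs the prior was 33.0 against 2 residual. CPM scales each sum to the same total. Named genes are the 8 highest and 8 lowest called per comparison with a mean over 20 CPM in either compared group. From each list, 2 to 4 were named by adjusted p. Others were chosen after their values were seen. Doublets were scored with Scrublet and the top 2% left out as an alternative. Gene positions follow GENCODE vM21. The fit was tested on simulated data. Alternatives for deep cells, thinning to 2000 UMIs, members with any of 5 B cell markers and held-out markers were added after the data had been seen. DESeq2 1.42.0 was an alternative. The lymph node libraries were used only for shares. Some members of the gene lists are counted in the lists but not reported here by name.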

Additional observations from a re-analysis of the deposited data

Results flagged for a closer look

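For 9 genes the difference between RTE-like and remaining cells was not the same in spleen and liver by the test of that difference (edgeR, adjusted p below 0.05, log2 spleen effect minus liver effect). It was higher in spleen for Ctla2a (1.15) and S100a6 (0.63). It was lower in spleen for H2-Ab1 (−4.20), Ccr10 (−2.52), Il7r (−1.33), Lgals3 (−1.01), Lmo4 (−0.82), Ccl5 (−0.77) and Ltb (−0.70). The lymph node libraries, which the comparisons above did not use, also held cells that met the rule, with shares of 2.01% (53 cells, exact 95% interval 1.51 to 2.62) and 1.26% (36 cells, 0.887 to 1.75).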

How the results depend on the processing

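Of the 623 genes called between RTE-like and remaining cells, 623 kept their direction with DESeq2 and with RLE scaling and 605 of 616 fitted against remaining cells without exclusion genes. The mean share was 4.36% in spleen and 1.54% in liver. It was 11.5% and 4.90% with at least 2 markers, 1.26% and 0.583% with at least 4, 5.75% and 3.33% without exclusion genes, 12.4% and 1.79% among cells of at least 2000 UMIs, 7.18% and 0.710% thinned to 2000 UMIs and 0.926% and 0.230% thinned to 1000; single libraries ranged from 3.80% to 4.91% and from 1.43% to 1.64%. The 623 calls became 294 with DESeq2, 329 in deep cells, 402 with at least 4 markers, 68 after thinning to 1000 UMIs (5 to 25 members a library), and 372 to 567 with 1 library left out. The 445 spleen calls became 129 with DESeq2, 116 in deep cells, 158 with at least 4 markers, 57 after thinning, and 94 (without spleen 1) to 467. The 259 liver calls became 94, 155 with at least 4 markers, 117 after thinning, and 90 (without liver 1) to 205. The 9 organ differences became 1 with DESeq2, 14 in deep cells, 24 with at least 2 markers, 0 after thinning (144 at an unadjusted p below 0.05), and 3 to 15. The 132 calls between organs became 32 with DESeq2, 470 with at least 2 markers, 24 with at least 4, 5 after thinning, and 41 (without liver 1) to 110. The 94 liver calls are those with DESeq2. In deep cells liver had 202 calls, more than the 116 of spleen, whereas spleen had more in the main fit. The cause of these changes was not tested, beyond fewer cells after thinning.

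Without the library as a replicate block, 119 genes were called in place of 623; with the library number as a block between organs, 123 in place of 132. The labels do not say whether same-numbered spleen and liver libraries share an animal or day, and with 2 pairs their deviations correlated at 0.00165 in RTE-like sums and 0.263 in remaining sums.

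Signs changed as follows (log2). After thinning to 1000 UMIs the median over all genes was −0.97 (−0.05 in the main comparison). A changed sign there is therefore not by itself a turn of that gene. S1pr4 (−0.40), Icos (−0.40), Cd247 (−0.53), Lmo4 (−0.021) and S100a11 (−0.21) lay above that median. Il17rb (−1.04) and Gbp2 (−1.70) lay below it, while Nusap1 was 0.49 and Rrm2 0.042. Between organs S100a6 was −0.37 after thinning. The organ difference of Lmo4 was 2.35, with a median over all genes of 0.68. Against remaining cells without exclusion genes, Hist1h2ap was 0.80, Rrm2 0.99, Tubb5 0.056, Stmn1 1.09, Cdk1 0.52 and Tuba1b 0.092. Cd74 was −1.40 without members that held any of 5 B cell markers and between −2.16 (without liver replicate 2) and 1.63 with 1 library left out. The organ difference was −0.010 for S100a6 and 0.10 for Ccl5 in deep cells, and for Ccr10 it lay between −3.996 and 0.32 (without liver replicate 1) with 1 library left out. Depth limits rare genes: 1 transcript is 3.38 to 8.75 CPM in the member sums.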
